A study of Manihot esculenta with 4 samples.

Results

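In leaves of cassava, Manihot esculenta, 102 genes were at least 2.83-fold lower in drought than in control in the cultivar KU50 while their drought and control values in the cultivar Xinxuan048 lay within 1.41-fold of each other. Both limits are on the scale of log2(FPKM + 1), where FPKM is the number of fragments scaled by transcript length and library size, and correspond to a KU50 log2 ratio of at most -1.5 and a Xinxuan048 log2 ratio strictly between -0.5 and 0.5. The 102 members came from 18602 genes that passed the filters of the rule, and these from 27146 genes listed in any library. The filters kept genes assigned to a chromosome, with a locus of at least 500 bases and a mean over the libraries of at least 1 and below 300 FPKM. The rule used the values of all 4 libraries, so the drought ratios of the members in both cultivars describe how they were chosen and carry no test.

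Leaf RNA was sequenced from KU50 under normal conditions, KU50 under drought stress, Xinxuan048 under normal conditions and Xinxuan048 under drought stress, with 1 library per group. The labels gave no plant age, no drought duration or severity, and not how many plants made up a library. With 1 library per group no value has a replicate check, and a difference between plants or libraries cannot be told apart from a difference between cultivars or conditions. In bulk leaf RNA, fewer cells of a type and less RNA per cell cannot be told apart either.

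Cassava is grown for its starchy roots and is known for tolerating dry seasons. When water is short its leaves close their stomata early, growth of new leaf area slows, and older leaves are shed. In plant leaves generally, drought acts in part through the hormone abscisic acid, and genes of growth and of photosynthesis are commonly reported as lower in droughted leaves. Cultivars of a crop can differ both in how a gene responds to drought and in its level before drought, and the members allow these to be looked at side by side. The genes are given by locus tag, because 0 of the 102 tags matched a table of 34312 RefSeq cassava genes and no file gives a name beside a tag. Positions are those of the deposited files, counted from 1, on a build that the sources used here do not name. Their functions are therefore not described, and markers of leaf cell types were not examined.

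Most members had their highest level in KU50 control, which the choice of genes lower in KU50 drought in part brings about. KU50 control had the highest value of the libraries in 96 of the 102 genes, or 94.1%, against 16.4% of all genes that passed the filters. In 62 members, 60.8%, it was at least 2-fold above each of the other libraries, which held for 1.45% of all genes. The trait is not particular to the members: among the 129 genes that met the same KU50 limit but had a Xinxuan048 log2 ratio of 0.5 or higher, the shares were 95.3% and 62.8%. KU50 drought was the lowest library in 72 members, 70.6%, against 13.2% of all genes. It was at least 2-fold below each of the others in 18 of the 102, 17.6%, where 0.704% of all genes were. Neither trait is particular to the members. Among the 352 other genes that met the KU50 limit the shares were 64.5% and 21%. They were 77.1% and 37.1% of the 70 with a Xinxuan048 log2 ratio of -1.5 or lower. For the 153 between -1.5 and -0.5 they were 82.4% and 25.5%, and for the 129 they were 36.4% and 6.98%. The KU50 control values of the members ran from 2.07 to 321 FPKM with a median of 10.7. The median member stood at 1.76 FPKM in KU50 drought. In Xinxuan048 it stood at 3.35 FPKM without stress and at 3.16 under drought, between the KU50 medians. Summed over the members, KU50 leaves gave 3171 FPKM without stress and 738 under drought, and Xinxuan048 leaves gave 1257 and 1147. These sums made up 0.499% and 0.121% of all FPKM of the KU50 libraries, control before drought, and 0.199% and 0.185% of those of Xinxuan048.

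**Figure D1:**
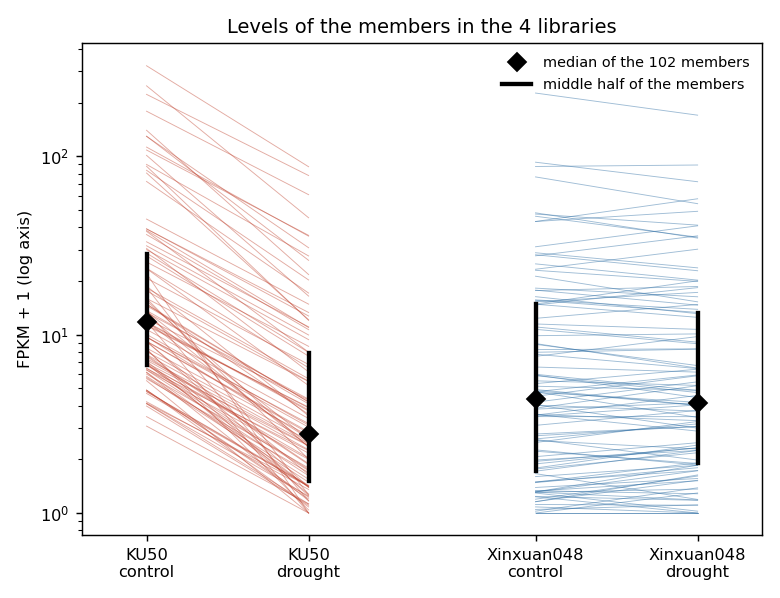
FPKM + 1 on a log axis for each of the 102 members in the 4 libraries, with 1 line per gene joining control and drought of a cultivar, diamonds at the medians and thick bars from the lower to the upper quartile. The KU50 lines run downward from a median of 10.7 to 1.76 FPKM, and the Xinxuan048 lines are close to level at medians of 3.35 and 3.16 FPKM, as the rule requires.

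The KU50 drought ratios of the members had a median of -1.80 on the log2 scale, with 36 genes at -2 or lower and 4 at -3 or lower. The Xinxuan048 ratios had a median of 0, with 50 genes above 0, 50 below and 2 exactly at 0. Over all 18602 genes the medians were 0.31 in KU50 and 0.37 in Xinxuan048, so the typical gene had a higher value in drought in both cultivars as deposited. Relative to these medians the members stood at -2.11 in KU50 and at -0.37 in Xinxuan048. With TMM scaling, a trimmed mean of log ratios that centres the libraries on each other, the medians of all genes were 0.00053 and 0.023, and those of the members -2.06 and -0.22. A member that kept its level in Xinxuan048 as deposited was therefore below the typical gene of that cultivar.

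The limit of -1.5 in KU50 was met by 454 genes, 2.44% of those that passed the filters, and the Xinxuan048 band held 53.7% of them. Both limits together gave the 102 members, or 0.548%. The remaining 352 genes of the 454 comprised 70 with a Xinxuan048 ratio of -1.5 or lower, 153 between that and -0.5, and 129 at 0.5 or higher. The rule mirrored in other ways gave 12 genes lower in Xinxuan048 drought only, 130 higher in KU50 drought only and 47 higher in Xinxuan048 drought only. With TMM scaling the same 4 rules gave 141 genes lower in KU50 only, 21 lower in Xinxuan048 only, 103 higher in KU50 only and 30 higher in Xinxuan048 only. Genes lower in KU50 only outnumbered those lower in Xinxuan048 only under both scalings.

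**Figure D2:**
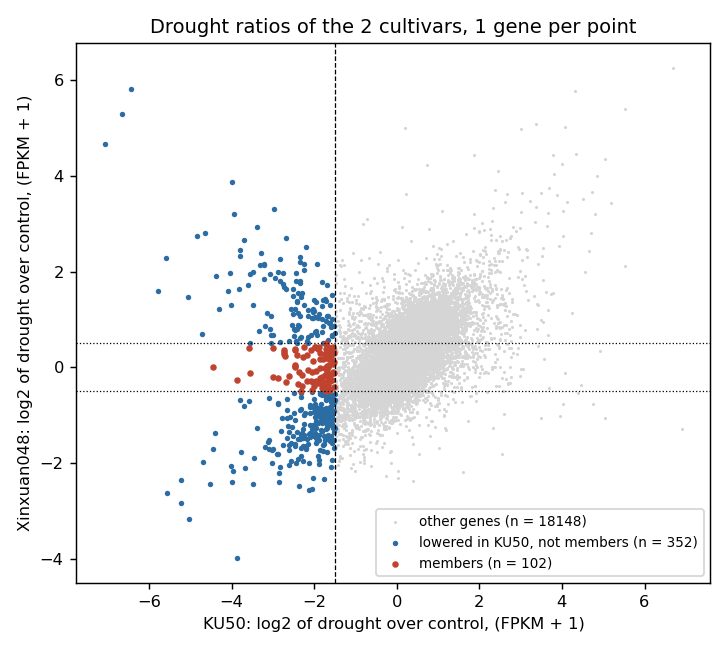
Log2 ratio of drought over control in KU50 (horizontal) and Xinxuan048 (vertical) for the 18602 genes that passed the filters, with 1 point per gene. The dashed line is the KU50 limit of -1.5 and the dotted lines are the Xinxuan048 limits of -0.5 and 0.5; the 102 members fill the strip between the dotted lines, and the 352 other genes past the KU50 limit lie above and below it.

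The lowest KU50 ratio belonged to MANES_10G023000, on chromosome 10 from 1773033 to 1779924. Its level was 21.0 FPKM in KU50 without stress, and it was unlisted, which the rule takes as 0, in each of the other libraries. Its place among the members thus came from 1 library. MANES_01G070200, on chromosome 1 from 19479140 to 19480912, followed with a log2 ratio of -3.86. KU50 leaves gave 17.4 FPKM without stress and 0.266 under drought for this gene, and Xinxuan048 leaves gave 6.77 and 5.45. Its Xinxuan048 values lay between those of KU50, well above the droughted KU50 leaf and below the control leaf.

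Between the control libraries, 67 of the 102 members had a Xinxuan048 value at least 2-fold below that of KU50, and 1 had a value at least 2-fold above it. Among all genes that passed the filters 6.45% were at least 2-fold lower and 2.11% at least 2-fold higher. The median log2 ratio of Xinxuan048 over KU50 in control was -1.43 for the members and -0.13 for all genes. This comparison shares the KU50 control and the Xinxuan048 control library with the rule, so these counts are a description. Of the 352 other genes past the KU50 limit, 158, or 44.9%, were at least 2-fold lower in Xinxuan048 control, against 65.7% of the members. The members and the 352 differ by the Xinxuan048 drought ratio, in which the Xinxuan048 control value also enters, so a difference between these shares is in part built in. By class of that ratio the share was 8.57% of the 70 genes at -1.5 or lower, 17.6% of the 153 between -1.5 and -0.5, and 96.9% of the 129 at 0.5 or higher.

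The member furthest below KU50 was MANES_16G012100, on chromosome 16 from 1164798 to 1166935. KU50 leaves gave 178 FPKM without stress and 59.9 under drought, and Xinxuan048 leaves gave 0.0475 and 0.112. The gene was near silent in Xinxuan048 in both conditions, and its log2 ratio of Xinxuan048 over KU50 was -7.42 in control and -5.78 in drought. MANES_16G054700, on the same chromosome from 13246493 to 13253051, showed the like pattern at a lower level. KU50 leaves gave 22.6 and 5.52 FPKM, control before drought, and Xinxuan048 leaves gave 0.117 and 0.105. Both genes had under 1 FPKM in both Xinxuan048 libraries.

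At the other end, MANES_11G048700, on chromosome 11 from 4744401 to 4748236, was higher in Xinxuan048 in both conditions. Control came before drought at 14.9 and 1.003 FPKM in KU50 and at 46.4 and 40.1 FPKM in Xinxuan048. Its log2 ratio of Xinxuan048 over KU50 was 1.57 in control and 4.36 in drought, the highest of the members in both. It was the 1 member at least 2-fold higher in Xinxuan048 in control. MANES_03G061200, on chromosome 3 from 6243009 to 6245834, came next in control with a log2 ratio of 0.42. Its values were 12.7 and 3.09 FPKM in KU50 and 17.2 and 15.3 FPKM in Xinxuan048, control before drought, so that only the droughted KU50 leaf was low.

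Between the drought libraries the cultivars were closer for the members than in control, though less alike than for most genes. Of the members, 71, or 69.6%, were within 2-fold in drought and 34, or 33.3%, in control. Of all genes that passed the filters, 93.7% were within 2-fold in drought and 91.4% in control. In drought 27, or 26.5%, were at least 2-fold higher in Xinxuan048, where 2.53% of all genes were. The share was 40.9% of the 352 other genes past the KU50 limit, so it is not particular to the members. By Xinxuan048 drought ratio it was 37.1% of the 70 at -1.5 or lower and 25.5% of the 153 between -1.5 and -0.5. For the 129 at 0.5 or higher it was 61.2%. Another 4 members, or 3.92%, were at least 2-fold lower, near the 3.78% of all genes. The median log2 ratio of Xinxuan048 over KU50 in drought was 0.49 for the members and -0.08 for all genes. The direction of the shift from control to drought is fixed by the rule, which makes the drought ratio between cultivars exceed the control ratio by more than 1 in every member. Where the pair of ratios lies is not fixed by the rule, but it depends in part on it, since the same libraries enter. Low values restrict it too. A member with under 1 FPKM in KU50 drought cannot be 2-fold lower in Xinxuan048 drought on this scale. The lower quartile of the members in KU50 drought was 0.504 FPKM.

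Sorted by both conditions, 55 members were at least 2-fold lower in Xinxuan048 control and within 2-fold in drought. In these KU50 control was at least 2-fold above Xinxuan048 control, though not always 2-fold above Xinxuan048 drought. The droughted leaves of both cultivars were within 2-fold on the scale of log2(FPKM + 1). That scale brings low values together, and 21 of the 55 had both Xinxuan048 values under 1 FPKM. A further 18 showed the opposite arrangement, within 2-fold in control and at least 2-fold higher in Xinxuan048 drought. Another 8, or 7.84%, were lower in control and higher in drought, where 0.559% of all genes were. It was 21.9% of the 352 other genes past the KU50 limit, so this arrangement is not particular to the members. By Xinxuan048 drought ratio it was 1.43% of the 70 at -1.5 or lower and 0.654% of the 153 between -1.5 and -0.5. For the 129 at 0.5 or higher it was 58.1%. Within 2-fold in both were 16, or 15.7%, against 87.9% of all genes. The remaining members were 4 lower in both and 1 higher in both, against 1.4% and 0.693% of all genes. The shares of these arrangements, too, depend in part on the rule. The first arrangement held for 53.9% of the members, 22.4% of the 352 other genes past the KU50 limit and 4.49% of all genes that passed the filters. Among genes with at least 1 FPKM in both Xinxuan048 libraries it held for 42.6% of 68 members and 15.8% of the 247 others past the KU50 limit. Within the 352 its share differed by Xinxuan048 drought ratio. It was 5.71% at -1.5 or lower, 16.3% between -1.5 and -0.5, and 38.8% at 0.5 or higher. For the 47 genes higher in Xinxuan048 drought only it was 48.9%. The second arrangement held for 17.6% of the members, 17.3% of the 352 and 1.28% of all genes that passed the filters.

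**Figure D3:**
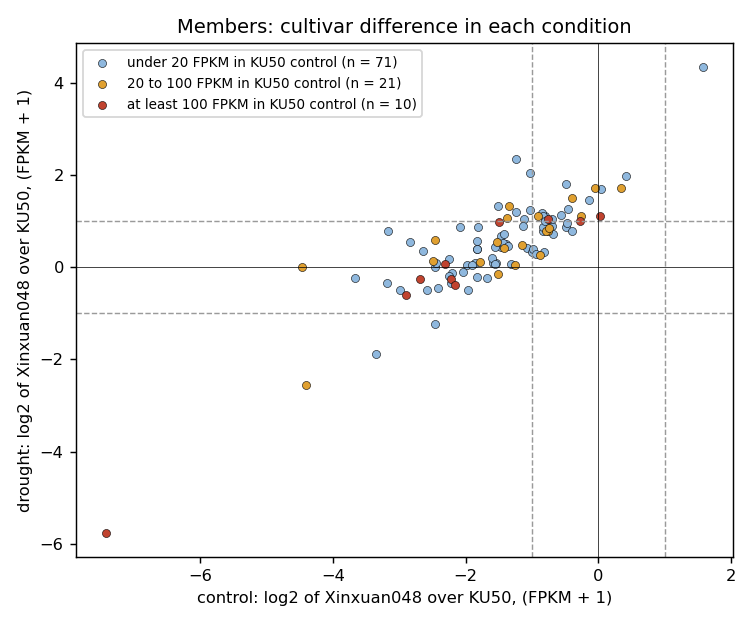
Log2 ratio of Xinxuan048 over KU50 in control (horizontal) and in drought (vertical) for the 102 members, coloured by their level in KU50 control, with dashed lines at 2-fold. The 55 genes left of the vertical line at -1 and between the horizontal lines form the largest group, and MANES_16G012100 and MANES_11G048700 lie at the lower left and upper right ends.

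The same can be read on a scale that runs from the KU50 drought level at 0 to the KU50 control level at 1, on which the mean log2 level of the Xinxuan048 libraries is placed for each gene. The median member stood at 0.282, and 71 of the 102, or 69.6%, lay nearer KU50 drought than KU50 control. Of all genes that passed the filters, 64.8% had a Xinxuan048 mean at or below the midpoint of the KU50 levels. That equals nearer KU50 drought only where KU50 control is the higher. The typical gene was higher in KU50 drought, with a median log2 ratio of 0.31, so this share is no like comparison for the members. In 24 members, 23.5%, the Xinxuan048 mean was below KU50 drought, and in 5, 4.9%, it was above KU50 control. Both Xinxuan048 values lay between the KU50 values in 68 members, 66.7%. Of the 352 other genes past the KU50 limit these shares were 11.4%, 2.84% and 41.5%, in the same order. Over all genes 4.78% had both values between, which here requires KU50 control to be the higher. The 352 other genes past the KU50 limit had a median of 0.469, with 54.3% nearer KU50 drought. By Xinxuan048 drought ratio this share was 30% of the 70 at -1.5 or lower and 35.9% of the 153 between -1.5 and -0.5. For the 129 at 0.5 or higher it was 89.1%. The scale is built from the same libraries as the rule, so a difference between these shares is in part built in. Among genes with at least 1 FPKM in both Xinxuan048 libraries, 39 of 68 members, or 57.4%, were nearer KU50 drought, and 94 of 247, or 38.1%, of the other genes past the KU50 limit.

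**Figure D4:**
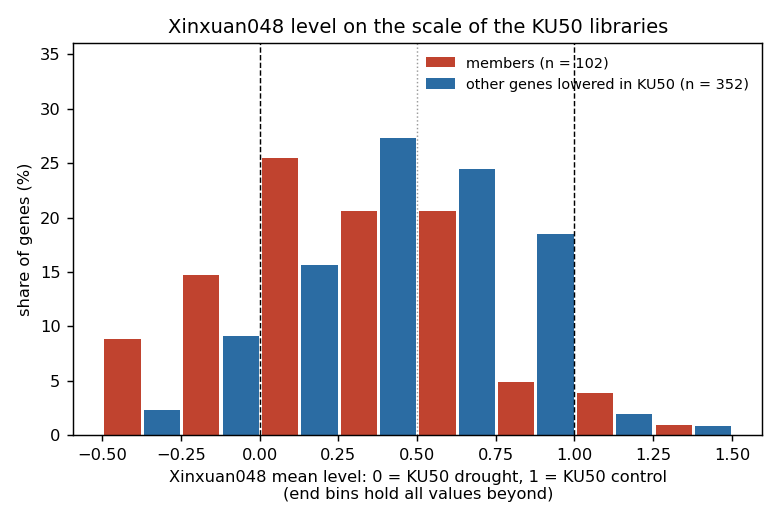
Place of the mean Xinxuan048 log2 level between KU50 drought (0) and KU50 control (1), as the share of the 102 members and of the 352 other genes past the KU50 limit in each bin, with the end bins holding all values beyond. The members have their highest bar just above 0 and the other genes between 0.25 and 0.5.

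Low values bear on part of the set. In 25 members, 24.5%, both Xinxuan048 values were under 1 FPKM, where a log2 ratio with the added pseudocount is held between -1 and 1. Such values were found in 1.77% of all genes that passed the filters. They were found in 26.2% of the 130 genes higher in KU50 drought only, which have the same Xinxuan048 band. Of the 37 genes past the KU50 limit with such values, 25 lay within the band of the rule and 12 outside it. All 37 were at least 2-fold lower in Xinxuan048 control, which the minimum mean and the KU50 limit largely bring about. The 68 members with at least 1 FPKM in both Xinxuan048 libraries included 36 that were at least 2-fold lower in Xinxuan048 control, or 52.9% in place of 65.7%. They included 25, or 36.8%, that were at least 2-fold higher in drought. These shares were 25.5% and 36.4% of the 247 other genes past the KU50 limit with such values. With a pseudocount of 0.1 in place of 1, the rule gave 128 genes, of which 72 were among the 102. Of the members, 7 were unlisted in at least 1 library: 3 in Xinxuan048 control and 4 in each drought library, some of them in more than 1. The share was 6.86%, against 0.849% of all genes that passed the filters and 13.6% of the 352 others past the KU50 limit.

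Among the members, lower values in Xinxuan048 control were found in every class of KU50 control level. The classes use the library that the ratio is taken against and that enters the rule, so these counts are in part built in. The share over all genes was not counted by class. Without classes 6.45% of all genes that passed the filters were at least 2-fold lower in Xinxuan048 control. By KU50 control level, 17 members had under 5 FPKM, 54 had 5 to 20, 21 had 20 to 100 and 10 had at least 100. The 10 most abundant had medians of 134 and 34.8 FPKM in KU50 and of 34.9 and 41.2 FPKM in Xinxuan048, control before drought, and 7 of them were at least 2-fold lower in Xinxuan048 control. In the class from 5 to 20 FPKM the medians were 8.70, 1.42, 2.70 and 2.74 in the same order, and 37 of 54 were at least 2-fold lower in Xinxuan048 control. In the class from 20 to 100 FPKM it was 12 of 21, and under 5 FPKM it was 11 of 17.

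The members with the highest mean level differed from each other in the comparison of cultivars. MANES_13G069300, on chromosome 13 from 7820195 to 7821916, gave 221 and 77.0 FPKM in KU50 and 225 and 169 FPKM in Xinxuan048, again control before drought. The control libraries were alike for this gene, and KU50 drought stood alone as the low value. It was also the member just inside the KU50 limit, with a log2 ratio of -1.51. MANES_11G128300, on chromosome 11 from 23890058 to 23891461, gave 321 and 86.4 FPKM in KU50 and 42.1 and 56.8 FPKM in Xinxuan048. Here KU50 control stood alone as the high value, and both Xinxuan048 values were below that of the droughted KU50 leaf.

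The limits of the rule cut through a continuous range. The nearest gene outside the KU50 limit had a KU50 log2 ratio of -1.49. At the upper Xinxuan048 limit the last member had a log2 ratio of 0.4998 and the nearest gene outside 0.506. At the lower limit the last member stood at -0.498 and the nearest gene outside at -0.506. The member with the lowest mean had 1.004 FPKM and the nearest gene below the filter had 0.959. The shortest member locus was 519 bases and the nearest gene outside had 492. A further 26 genes met both ratio limits with a mean under 1 FPKM and 13 with a locus under 500 bases, and 0 did so with a mean of 300 FPKM or more.

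The loci of the members were shorter by their median than those of all genes, as were those of other genes chosen by a drought ratio. Their span had a median of 2127 bases, with a lowest of 519 and a highest of 14174. The median was 3750 bases for all genes that passed the filters and 1819 for the 352 other genes past the KU50 limit. Short spans were found in the mirrored sets too, with medians of 1883 bases for genes higher in KU50 drought only, 1435 for those higher in Xinxuan048 drought only and 1318 for those lower in Xinxuan048 drought only. The locus span includes introns, whereas FPKM are scaled by transcript length.

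The members lay on all 18 chromosomes, with 3 to 14 on each. Chromosome 11 held 14 of them among its 952 genes, 1.47%, against 0.548% over all chromosomes. The next share was 0.726% on chromosome 16, with 6 members. Chromosome 11 also had the highest share of genes past the KU50 limit, 44 of 952 or 4.62%, while its median KU50 log2 ratio was 0.31, as over all genes to 2 decimals. Of its genes past the KU50 limit 31.8% were members, compared with 12% to 26.9% on the other chromosomes. With the rule applied after TMM scaling, chromosome 11 held 12 members, or 1.26%, and chromosome 14 held 12, or 1.20%, so that chromosome 11 no longer stood as far from the others.

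**Figure D5:**
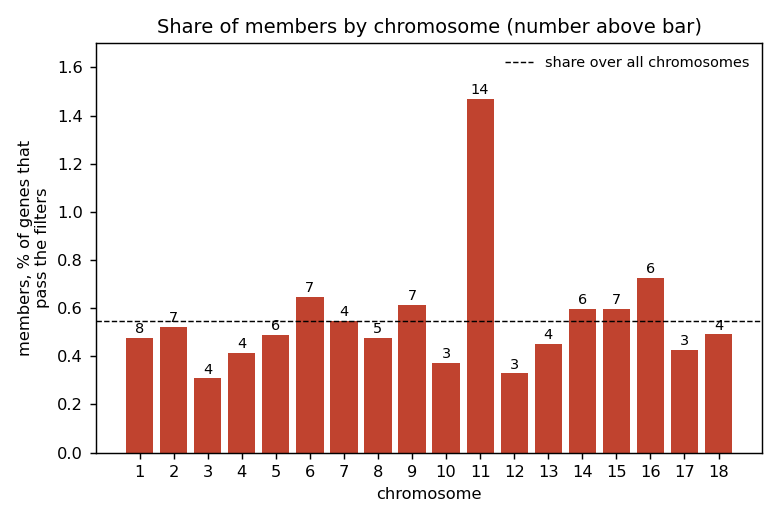
Members as a percentage of the genes of each chromosome that passed the filters, with the number of members above each bar and the share over all chromosomes as a dashed line. Chromosome 11, with 14 members and 1.47%, stands above the other chromosomes, which lie between 0.308% and 0.726%.

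On chromosome 11, 10 of the 14 members lay in the first 6 Mb, which held 341 of its 952 genes, or 35.8%, and 25 of its 44 genes past the KU50 limit. Counted in windows of 2 Mb, a division chosen after the values were seen, the window of chromosome 11 from 4000001 to 6000000 held 6 members among 89 genes, the highest number of the 268 windows that held a gene. In all, 194 windows held no member, 55 held 1, 14 held 2, 3 held 3 and 1 held 4. The window also held 10 genes past the KU50 limit, and its median KU50 log2 ratio over all its genes was 0.31. Most genes of the window therefore did not share the low KU50 drought values.

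The longest run of members that followed each other among the genes passing the filters had 3 genes and lay in that window. MANES_11G059400, from 5827871 to 5828771, gave 6.11 and 0.278 FPKM in KU50 and 0.306 and 0.363 FPKM in Xinxuan048, control before drought. MANES_11G059600, from 5876797 to 5878948, gave 2.47 and 0.124 FPKM in KU50 and 0.982 and 1.24 FPKM in Xinxuan048. In each KU50 control was the high library. A run of 2 lay on chromosome 7 and another on chromosome 14, and the remaining 95 members had no member as a direct neighbour. The 194 genes that were no members but lay next to one had a median KU50 log2 ratio of 0.14, against 0.32 for all 18500 genes outside the set. Of these neighbours 16, or 8.25%, were at least 2-fold lower in KU50 drought, where 4.70% of all 18500 were. Their median Xinxuan048 log2 ratio of 0.37 was near the 0.38 of all genes outside the set.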

How the data were processed

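The authors deposited an FPKM value for each listed gene of each library. TopHat2 2.0.12 and Cufflinks appear in the submitters' processing notes, with no role or settings. For the Cufflinks version, genome build and annotation, nothing is given in the sources used here. No gene was listed with a 0, and a gene absent from a file was taken as 0 and called unlisted. Locus starts were taken to count from 0, as Cufflinks writes them, and 1 was added; 1 locus with a damaged position in 1 library took it from another.

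Groups came from the labels. Values were compared as log2(FPKM + 1), which understates differences of low genes, without rescaling. No test was run, since each group had 1 library; members past 2-fold were counted beside all genes that passed the filters. The number of fragments behind a value is unknown: at loci of 150 bases the 3 values listed in KU50 control were whole multiples of 51.6 FPKM (tolerance 0.01 of a multiple), but too few such loci were listed to give the depth of each library.

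The members and lists were chosen with earlier results of these data known. Named members were those with the 2 lowest KU50 ratios, the 2 highest and 2 lowest cultivar ratios in each condition, the 2 highest means, and 2 of the longest run. Lists that select genes by description could not be applied. Selection and scaling were tested on simulated data. Alternatives were the pseudocount, the scaling, the filters and the limits of the rule. Python 3.11.15, pandas 2.3.3 and matplotlib 3.10.9 were used.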

Additional observations from a re-analysis of the deposited data

Results flagged for a closer look

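Each of the following differences rests on 1 library per group and was not tested. The median log2 ratio of Xinxuan048 over KU50 had opposite signs in control and in drought, at -1.43 and 0.49, a difference of 1.92 whose direction the rule fixes. MANES_01G070200 was below KU50 in Xinxuan048 control and above it in drought, and its drought ratios differed by 3.60 on the log2 scale, Xinxuan048 minus KU50. The drought ratio was below 0 in KU50 and slightly above 0 in Xinxuan048 for MANES_11G059400, with a difference of 2.54, and for MANES_11G059600, with a difference of 1.81. The same held for MANES_11G128300, with a difference of 2.30, and for MANES_16G012100, with a difference of 1.64; in the latter the Xinxuan048 values were near 0.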

How the results depend on the processing

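No paired analysis was possible because each group had 1 library, and for the same reason no library could be left out. With the members held, the median log2 ratios stayed between -2.37 and -1.75 in KU50 and between -0.37 and 0.01 in Xinxuan048 over 6 alternatives, and between -1.64 and -1.30 for the cultivars in control and 0.48 and 0.75 in drought. Under the 3 other scalings and relative to the median of all genes, 63 to 67 members were at least 2-fold lower in Xinxuan048 control, and 27 to 30 at least 2-fold higher in drought; a pseudocount of 0.1 gave 42 for the latter. Which genes are members depended more on the settings. Applied relative to the median of all genes, the rule gave 163 genes, of which 63 were among the 102; TMM scaling gave 141, sharing 68. A mean of at least 5 FPKM left 49 members, 29 of them lower in control. A KU50 limit of -1 gave 300 members, with 126 lower in control, 52 higher in drought and 119 nearer KU50 control, and a limit of -2 gave 36, 31, 11 and 7 in the same order. A Xinxuan048 band of 0.25 gave 42, 28, 8 and 14. The restriction to at least 1 FPKM in both Xinxuan048 libraries, chosen after the data were seen, left 36 lower in control. A stricter limit or filter leaves fewer genes by construction; other causes were not tested.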
